A study of Bos taurus with 3 samples.

Results

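The PLVAP-positive blood endothelial cells described here were endothelial cells of the newborn bovine rumen with at least 2 unique molecular identifiers (UMIs) of PLVAP and no UMI of IGFBP3. They numbered 498 of 1019 endothelial cells, and of 26020 kept barcodes in all. A barcode was called endothelial when it held UMIs of at least 3 of the 7 genes PECAM1, CLDN5, CDH5, KDR, VWF, EGFL7 and RAMP2, no UMI of the leukocyte gene PTPRC, and fewer than 10 UMIs of KRT5, KRT14 and KRT15 together per 10000. Calves 1, 2 and 3 gave 35, 186 and 277 PLVAP-positive cells out of 53, 379 and 587 endothelial cells. The remaining 521 endothelial cells, 18, 193 and 310 by calf, served for comparison and are called the other endothelial cells.

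Endothelial cells line blood and lymph vessels, and those of arteries, capillaries and veins differ in the genes they use. PLVAP encodes the protein of the diaphragms that span endothelial fenestrae, caveolae and transendothelial channels, and it is known from fenestrated capillaries and from venules, where blood solutes and leukocytes cross the wall. In the rumen, vessels below the stratified epithelium take up what the epithelium absorbs, and in the newborn the organ is not yet a fermentation chamber.

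The study set out to compare rumen cells of newborn and adult Holstein dairy cattle, and the libraries used here came from 3 newborn calves sampled 1 day after birth, with 1 droplet library per calf. The outer muscle layers were removed from the tissue, which was then dissociated with EDTA, trypsin, collagenases, dispase and hyaluronidase, so vessels of the removed layers were not sampled. Calf 1 was represented by 7529 barcodes with 82263092 UMIs, calf 2 by 12043 with 89803289 and calf 3 by 11656 with 106145091, counted over 27270 genes. Barcodes with 500 to 4000 genes, at most 50000 UMIs and at most 40% of UMIs in the 13 mitochondrial coding genes were kept, which left 4886, 10654 and 10480.

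PLVAP-positive cells were 66.0% of the endothelial cells in calf 1 (95% exact Clopper-Pearson interval 51.7 to 78.5), 49.1% in calf 2 (43.9 to 54.2) and 47.2% in calf 3 (43.1 to 51.3). The mean was 54.1% ± 10.4 (SD, n = 3 calves). The interval of calf 2 overlapped with those of calves 1 and 3, which did not overlap with each other, and the intervals cover counting error only. Endothelial cells themselves were 1.08%, 3.56% and 5.60% of the kept barcodes of calves 1, 2 and 3, so calf 1 had the fewest by number and by share, and the values of calf 1 below rest on at most 35 PLVAP-positive cells and 18 others. Kept barcodes with the same sequence occurred in 11 cases in calf 1 and calf 2, in 20 in calf 1 and calf 3 and in 30 in calf 2 and calf 3, and 1 PLVAP-positive cell of calf 2 shared its barcode with 1 of calf 3. A score against summed pairs of cells was used to mark likely doublets. The share marked was set in advance in proportion to the number of kept barcodes, at 3.91%, 8.52% and 8.39%, and is no measurement. Of the PLVAP-positive cells the score marked 1, 15 and 11, and of the other endothelial cells 1, 4 and 18. The marked cells were left in.

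The members were chosen by PLVAP, by IGFBP3, which encodes a binding protein of insulin-like growth factors, and by the 7 endothelial genes, so the values of these genes are a description and were not tested. A PLVAP-positive cell held a median of 8, 9 and 10 PLVAP UMIs in calves 1, 2 and 3, and at most 28, 53 and 67. Just inside the threshold, 2, 13 and 23 cells had exactly 2 PLVAP UMIs. Just outside it, 3, 17 and 16 endothelial cells without IGFBP3 had exactly 1. On the side of IGFBP3, 6, 37 and 63 endothelial cells with at least 2 PLVAP UMIs were left out for exactly 1 IGFBP3 UMI. Epithelial cells, which made up most of each library and serve below as the background of free RNA for endothelial genes, held IGFBP3 at 3.73 ± 3.21 UMIs per 10000 (SD, n = 3 calves). Epithelial cells of newborns can make IGFBP3 themselves, so this value is no background for that gene, and whether free RNA gave single IGFBP3 UMIs in endothelial cells was not tested. The other endothelial cells were thus a mixture: 12, 148 and 264 had IGFBP3, most of them together with PLVAP (8, 117 and 186 had at least 2 PLVAP UMIs), and 6, 45 and 46 had neither IGFBP3 nor 2 PLVAP UMIs.

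Levels below were obtained by summing the cells of a group within a calf and are given per 10000 UMIs, for calves 1, 2 and 3 in that order. They count transcript ends and are not scaled by gene length. PLVAP (ENSBTAG00000005434) stood at 18.3, 26.3 and 22.6 in PLVAP-positive cells. In the other endothelial cells it stood at 13.2, 22.6 and 15.0, since many cells left out for IGFBP3 also carried it. The 2 ranges overlapped, and the epithelial mean was 0.0153. IGFBP3 was 0 in PLVAP-positive cells by choice and 13.8 ± 2.36 (SD, n = 3) in the other endothelial cells. PLVAP thus marked endothelium as a whole against epithelium, while the group itself was set apart by its count of PLVAP and the absence of IGFBP3.

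The other given markers were high in the endothelium as a whole, and TFPI2 alone among them had its greater value in PLVAP-positive cells of every calf, as a description without a test. CLEC3B, which encodes the plasminogen-binding protein tetranectin, was at 47.3, 44.8 and 41.5 in PLVAP-positive cells and at 46.3, 40.4 and 49.3 in the other endothelial cells. RAMP2, the partner of the calcitonin receptor-like receptor that makes it a receptor for adrenomedullin, was at 21.3, 28.8 and 20.3 and 21.0, 28.5 and 20.8. For both genes the ranges of the groups overlapped. The chemokine CCL14 was at 15.0, 27.3 and 3.12 in PLVAP-positive cells and at 14.3, 24.1 and 3.89 in the others. CCL14 was therefore low in both groups of calf 3 and differed more between calves than between groups. TFPI2, a secreted inhibitor of serine proteases, was at 14.8, 11.5 and 36.7 against 6.60, 9.83 and 24.6, the higher value being that of PLVAP-positive cells in each of the 3 calves, although the calves differed enough for the ranges to overlap. In epithelial cells the means of CLEC3B, RAMP2, CCL14 and TFPI2 were 0.0375, 0.195, 0.00692 and 0.0326.

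**Figure D1:**
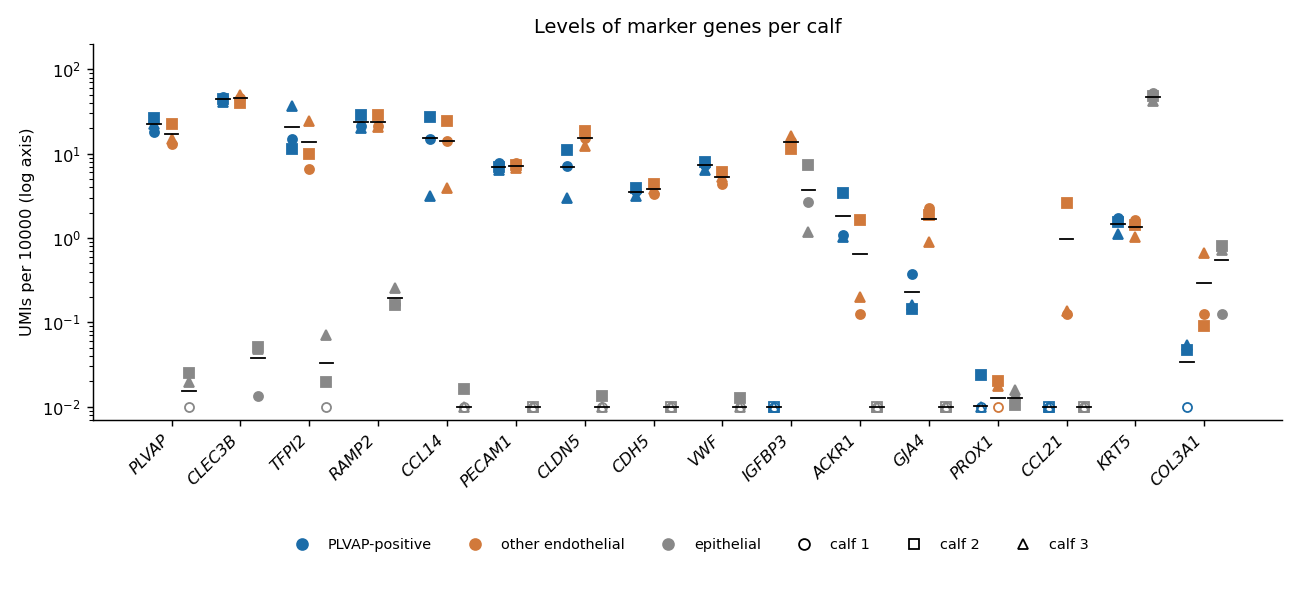
Levels of marker genes as UMIs per 10000 (log axis) in PLVAP-positive, other endothelial and epithelial cells of each calf, with values below 0.01 drawn as open symbols at 0.01 and the mean as a black line. The given markers PLVAP, CLEC3B, TFPI2, RAMP2 and CCL14 were high in both endothelial groups and low in epithelial cells, while GJA4 lay lower and ACKR1 had the higher mean in PLVAP-positive cells.

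To compare shares of cells with a UMI, each cell with at least 2000 UMIs was thinned to that number, which kept 473 PLVAP-positive cells and left out 1, 10 and 14 shallower ones in calves 1, 2 and 3. The median depth before thinning was 4299.5 UMIs in PLVAP-positive cells, 4194 in the other endothelial cells and 7778.5 in epithelial cells. After thinning, a TFPI2 UMI was found in 79.4%, 65.3% and 95.4% of PLVAP-positive cells (89.8% of the pooled cells unthinned) and in 0.561% of epithelial cells (2.21% unthinned). CCL14 was found in 97.1%, 98.9% and 36.1% (75.7% unthinned), against 0.135% of epithelial cells (0.630% unthinned). Almost every PLVAP-positive cell of calves 1 and 2 thus held CCL14, while most of those of calf 3 held no UMI of it at this depth. TFPI2 had the opposite order, with the highest share in calf 3.

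The label of blood endothelium was checked against markers of other vessels. Several genes of lymphatic endothelium were at or near 0 in PLVAP-positive cells: the lymphatic transcription factor PROX1 at 0, 0.0238 and 0.00675, the chemokine CCL21 at 0 in every calf, and PDPN at 0, 0.0238 and 0. LYVE1, described below, was an exception at 0.812, 0.988 and 2.06, and through it the 9 listed lymphatic genes summed to 2.34 in PLVAP-positive cells of calf 3 against 1.66 in the others, while in calves 1 and 2 the sum was the lower in PLVAP-positive cells. CCL21 was at 0.124, 2.62 and 0.135 in the other endothelial cells. Among markers of continuous capillaries, carbonic anhydrase CA4 was at 0 in PLVAP-positive cells of all 3 calves, and the fatty acid binding protein FABP4 was at 0.0541, 0.155 and 0.0202. The fatty acid transporter CD36 was at 2.27, 1.76 and 1.92 and the capillary gene RGCC at 1.25, 1.48 and 4.79. The adhesion molecule SELE, which inflamed venules carry, was at 0 in each calf, but the venular genes ACKR1 and SELP were present. Apart from LYVE1, lymphatic genes were thus low, and capillary and venular genes were both present.

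The first comparison asked which genes set PLVAP-positive cells apart from the other endothelial cells of the same calf, with UMIs summed per calf and group and the calf as a block. Most arterial genes tested fell and some venular genes rose in PLVAP-positive cells. By the quasi-likelihood test of edgeR, with p-values adjusted by the Benjamini-Hochberg method and a threshold of 0.05, 260 of 7130 genes differed, 145 higher and 115 lower, which is 3.65% of the genes tested, 2.03% higher and 1.61% lower. The direction was the same in all 3 calves for 124 of the higher and 105 of the lower genes. DESeq2 on the same profiles called 34 genes, 8 higher and 26 lower, all of them among the 260, so most calls depended on the tool. EdgeR called 76 genes without calf 3, and 9, all lower, without the calf as a block. When cells were chosen after thinning to 2000 UMIs, which left calf 1 with too few other cells to enter, it called 167 of 4626. Of the higher genes, 61 encoded ribosomal proteins and 8 were encoded by the mitochondrial genome.

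The ribonuclease gene RNASE1 (ENSBTAG00000008793), whose product endothelium secretes to break down extracellular RNA, had the largest rise among the named genes. It was at 7.79, 3.98 and 4.31 in PLVAP-positive cells and at 2.24, 1.16 and 0.668 in the other endothelial cells, with no overlap between the groups. The log2 fold change was 2.29 ± 0.161 (SE; edgeR adjusted p = 8.22e-09; DESeq2 adjusted p = 4.25e-16). More than 1 gene carries the symbol RNASE1 in these files, and reads of close copies could be split between them. After thinning, 35.3%, 26.7% and 23.2% of PLVAP-positive cells had an RNASE1 UMI, a mean of 28.4% ± 6.23 against 6.17% ± 1.38 of the other endothelial cells (SD, n = 3). Unthinned, the pooled shares were 30.9% and 9.79%, and in epithelial cells 0.866% thinned and 2.72% unthinned. RNASE1 was therefore detected in a minority of the PLVAP-positive cells, in each calf at a higher share than in the rest of the endothelium.

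ACKR1 (ENSBTAG00000003220), the atypical chemokine receptor of venules, was at 1.08, 3.39 and 1.04 in PLVAP-positive cells and at 0.124, 1.62 and 0.199 in the others. The ranges overlapped through the high value of calf 2 in both groups, and the rise of 1.64 ± 0.204 on the log2 scale held in each calf (edgeR adjusted p = 2.70e-05; DESeq2 adjusted p = 0.000287). The call depended on the threshold for PLVAP: with at least 3 PLVAP UMIs the log2 fold change of ACKR1 was 0.75 and missed the threshold (edgeR adjusted p = 0.0568). ACKR1 also missed it with the cells left out that carried fibroblast, mural or keratin UMIs, as defined below (1.29, edgeR adjusted p = 0.304) and without the calf as a block (1.38, edgeR adjusted p = 1.00). Leaving out those cells removed most PLVAP-positive cells and took calf 1 out of the test. What part their number had in calls lost in that setting, here and below, was not tested. Thinned shares of PLVAP-positive cells with ACKR1 were 11.8%, 22.2% and 10.6%, with 6.45% ± 4.22 in the other endothelial cells and 0.0143% in epithelial cells (unthinned 21.9%, 7.49% and 0.0870%). The venous transcription factor NR2F2 was at 1.30, 1.63 and 1.83 against 0.871, 1.09 and 1.05, without overlap. Its rise of 0.79 ± 0.142 passed edgeR (adjusted p = 0.00184) but not DESeq2 (adjusted p = 0.203), nor edgeR without calf 3, where it was 0.67 (adjusted p = 0.129). P-selectin, SELP, which leukocytes bind when they roll on venules, was at 0.866, 1.27 and 1.42 against 0.124, 1.38 and 0.363, and was the higher in PLVAP-positive cells of calves 1 and 3 but not of calf 2. Its log2 fold change was 1.03 ± 0.274 (edgeR adjusted p = 0.0368; DESeq2 adjusted p = 0.373). Of the 14 listed genes of venular endothelium 8 were tested, and ACKR1, SELP and NR2F2 rose while none fell, with a median log2 fold change of 0.56 beside 0.00 over all genes tested. DESeq2 called 1 of the 8, ACKR1, and edgeR without calf 3 called ACKR1 but not SELP or NR2F2, 1 of 7 tested.

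LYVE1, a hyaluronan receptor best known from lymphatic vessels, was at 0.812, 0.988 and 2.06 in PLVAP-positive cells and at 0.622, 0.417 and 0.966 in the others. It rose in each calf (edgeR adjusted p = 6.67e-05; DESeq2 adjusted p = 0.0160), although the ranges overlapped. The other lymphatic genes that were tested, CCL21 and MMRN1, fell, so LYVE1 did not move with its list of 9 genes, of which 3 were tested, with a median log2 fold change of -1.67 (DESeq2 called LYVE1 and MMRN1). MMRN1, a protein of platelets and endothelium, was at 0.271, 0.119 and 0.216 against 2.49, 0.600 and 0.451. Among the other endothelial cells, MMRN1 and CCL21 were at means of 5.63 and 6.32 in those without IGFBP3 and of 0.220 and 0 in IGFBP3-positive cells. CCL21 was thus found only in those cells of the comparison group that lacked IGFBP3, and MMRN1 was at a higher level there but not confined to them. The cells that lacked IGFBP3 were a mixture, since they also held GJA4 at a mean of 3.73.

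The other genes with the largest rises had varied products. The chemokine CCL8 was at 0.812, 1.30 and 1.60 against 0.498, 0.163 and 0.744, and the fibrinogen-like protein FGL1 at 1.68, 1.34 and 1.19 against 0.871, 0.732 and 0.328. Neither pair of groups overlapped, and the log2 fold changes were 1.67 ± 0.239 and 1.44 ± 0.193 (edgeR adjusted p = 0.000159 and 6.67e-05). MUSTN1, a small nuclear protein known from muscle and skeleton, rose by 1.28 ± 0.163, and GRO1, a chemokine of the CXC family, by 0.83 ± 0.138 (edgeR adjusted p = 3.63e-05 and 0.000830). Without the cells that carried fibroblast, mural or keratin UMIs none of these 4 genes passed, with log2 fold changes of 0.98 for CCL8, 1.39 for FGL1, 0.98 for MUSTN1 and 0.35 for GRO1 (edgeR adjusted p = 0.169, 0.131, 0.287 and 0.976). With at least 3 PLVAP UMIs, FGL1 and GRO1 passed at 0.67 and 0.50, and without calf 3 CCL8 passed at 2.79. Bovine chemokine genes have close copies, so the split of reads among CCL8, CCL2 and CCL14, and among GRO1 and its relatives, is uncertain. The homeobox gene MEOX1 was at 4.44, 4.17 and 4.39, with little spread between calves, against 1.62, 3.99 and 1.88. MEOX1, the transmembrane protein gene SERTM1, the sialyltransferase gene ST3GAL4 and NFKBIZ, a regulator of NF-kappaB targets, passed edgeR with log2 fold changes of 0.84, 1.01, 0.94 and 0.77, but not DESeq2 (adjusted p = 0.116, 0.0532, 0.115 and 0.186). Without calf 3, MEOX1 shrank to 0.42 and NFKBIZ stayed at 0.70, and neither passed edgeR (adjusted p = 0.649 and 0.146). MEOX1 was at 0.35 with the cells left out that carried fibroblast, mural or keratin UMIs (edgeR adjusted p = 0.984). NFKBIZ was at 0.35 when cells were chosen after thinning (edgeR adjusted p = 0.692).

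Arterial genes fell as a group. Of 14 listed genes 12 were tested, and 10 were lower in PLVAP-positive cells and none higher, with a median log2 fold change of -1.99 beside 0.00 over all genes tested. DESeq2 called 6 of them, all lower, and edgeR without calf 3 called 6 of 11. With the cells left out that carried fibroblast, mural or keratin UMIs, edgeR called 3 of 7, all lower, with a median of -1.27. The gap junction gene GJA4 (ENSBTAG00000013881), connexin 37 of arterial endothelium, was at 0.379, 0.143 and 0.162 in PLVAP-positive cells and at 2.24, 1.85 and 0.896 in the others. Every value of PLVAP-positive cells lay below every value of the others, and the log2 fold change was -2.82 ± 0.230 (edgeR adjusted p = 5.85e-08; DESeq2 adjusted p = 2.36e-10). A GJA4 UMI was found in 5.88%, 1.14% and 1.14% of thinned PLVAP-positive cells and in 19.9% ± 7.37 of the other endothelial cells, against 0.162% of epithelial cells (unthinned 4.22%, 26.7% and 0.452%). GJA5, connexin 40, had 1 UMI in all PLVAP-positive cells together and levels of 0.622, 0.386 and 0.527 in the others.

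The netrin receptor UNC5B was at 0.379, 0.381 and 0.270 in PLVAP-positive cells and at 1.87, 1.17 and 1.50 in the other endothelial cells. The chemokine CXCL12, which arterial endothelium secretes, was at 0.758, 0.381 and 0.256 against 6.22, 1.54 and 0.791. Both genes fell without overlap of the groups, by -2.03 ± 0.199 and -1.95 ± 0.201 on the log2 scale (edgeR adjusted p = 7.34e-07 and 1.55e-06). Without the cells that carried fibroblast, mural or keratin UMIs, UNC5B passed at -2.60 and CXCL12 did not, at -1.24 (edgeR adjusted p = 0.00123 and 0.385). The kinase gene BMX was at 0.0541, 0.0833 and 0.0877 against 0.871, 0.529 and 1.51 and the Notch target HEY1 at 0.108, 0.0714 and 0.310 against 0.747, 0.407 and 1.58. They fell by -3.61 ± 0.277 and -2.29 ± 0.212 (edgeR adjusted p = 2.31e-08 and 3.26e-07; DESeq2 adjusted p = 3.49e-08 and 2.22e-05). The transcription factor SOX17 was at 2.27, 1.40 and 1.41 against 2.61, 2.34 and 2.95, a smaller fall of -0.73 ± 0.147 that DESeq2 did not call (adjusted p = 0.375). DLL4, EFNB2 and FBLN5 were the remaining arterial genes that fell, by edgeR alone, and JAG1 and MGP did not pass. JAG1 was at 1.14, 1.36 and 1.56 in PLVAP-positive cells and 2.24, 1.61 and 2.06 in the others.

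Several genes outside the arterial list fell as far. EGFL8 (ENSBTAG00000025410), a secreted protein with EGF-like repeats, was at 0.162, 0.0119 and 0.115 in PLVAP-positive cells and at 0.622, 0.956 and 1.82 in the other endothelial cells. It fell by -4.01 ± 0.288 on the log2 scale (edgeR adjusted p = 8.22e-09; DESeq2 adjusted p = 1.93e-08), without overlap of the groups. The small secreted protein gene PLAC9 was at 0.650, 0.202 and 0.391 against 1.87, 1.73 and 1.85, and fibronectin, FN1, at 0.541, 0.202 and 0.358 against 2.37, 1.04 and 1.52. Their log2 fold changes were -2.30 ± 0.199 and -2.06 ± 0.183 (edgeR adjusted p = 1.26e-07 and 1.94e-07), and again the groups did not overlap. PPP1R14A, an inhibitor of myosin phosphatase, fell by -1.82 ± 0.198, and the calcium-binding protein gene S100A4 fell as well (edgeR adjusted p = 4.02e-06 and 4.78e-06). Both were lower in PLVAP-positive cells of each calf.

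Of the genes with the largest falls, CYP1A1 rested on calf 3, and ELN lost its call without that calf although it was lower in each calf. CYP1A1, a monooxygenase that the aryl hydrocarbon receptor induces, was at 0.162, 0 and 0.108 in PLVAP-positive cells and at 0.249, 0.0610 and 3.23 in the others. Its log2 fold change of -4.54 ± 0.324 passed edgeR (adjusted p = 8.22e-09) but not DESeq2 (adjusted p = 0.639), the ranges overlapped, and without calf 3 the gene was too low to be tested. Elastin, ELN, was at 1.08, 2.32 and 0.587 against 4.11, 3.09 and 2.95, a fall of -1.27 ± 0.239 (edgeR adjusted p = 0.00274; DESeq2 adjusted p = 0.0138). The log2 fold change of ELN became -0.59 without calf 3 (edgeR adjusted p = 0.347). It was 0.0215 without the cells that carried fibroblast, mural or keratin UMIs (edgeR adjusted p = 0.996). GLUL, glutamine synthetase, was at 0.595, 1.02 and 1.59 against 1.37, 1.99 and 5.77 and fell by -1.40 ± 0.168, lower in each calf although the ranges overlapped. Of the 24 genes named as the 12 with the largest rise and the 12 with the largest fall, DESeq2 called 18, and edgeR without calf 3 called 19.

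**Figure D2:**
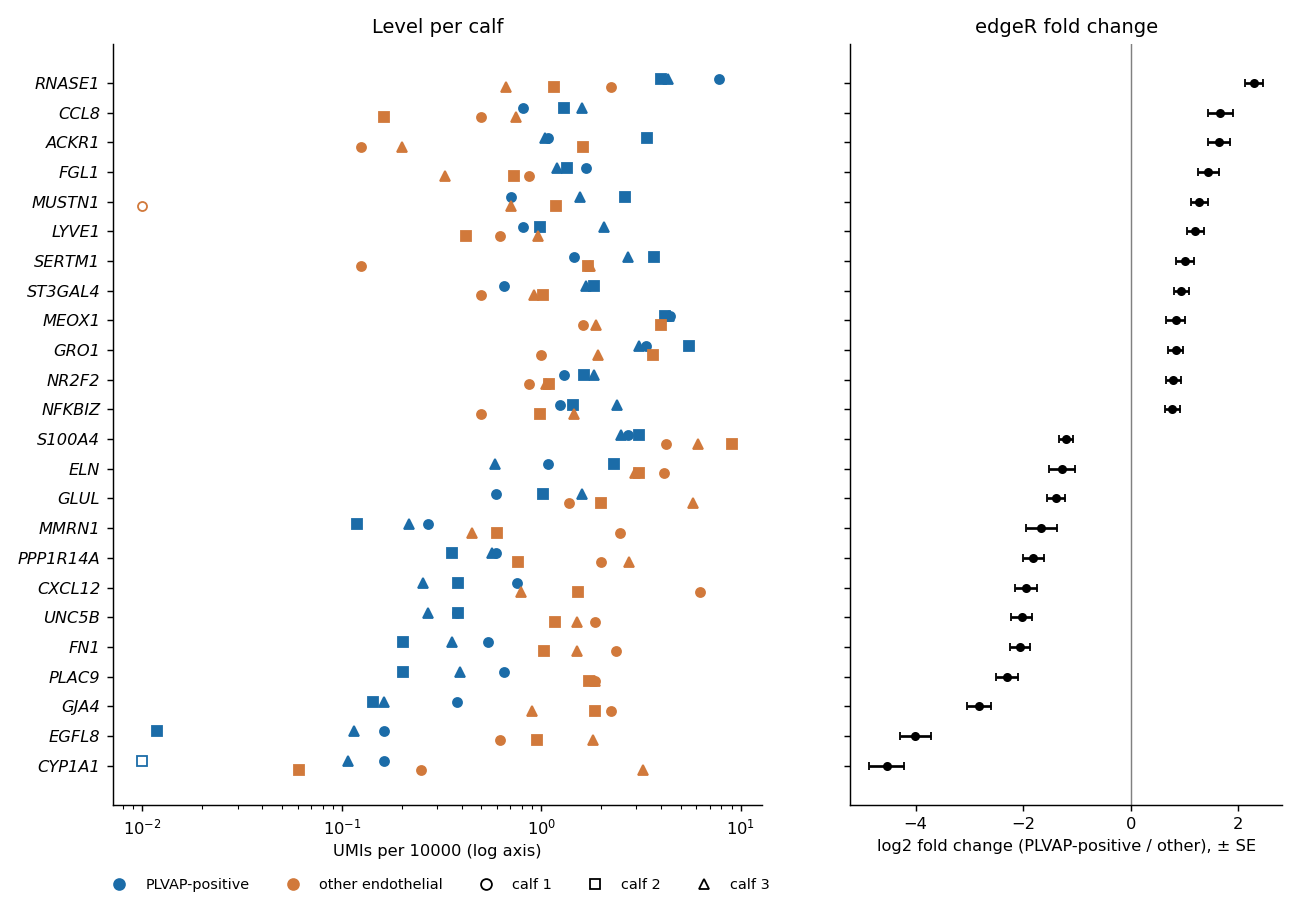
The 24 named genes of the comparison with the other endothelial cells, as UMIs per 10000 per calf (left, log axis, values below 0.01 drawn open at 0.01) and as the edgeR log2 fold change with its SE (right). RNASE1 had the largest rise, at 2.29, and CYP1A1 the largest fall, at -4.54, the latter carried by calf 3.

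The insulin-like growth factor genes moved in both directions. IGF2, the fetal growth factor, was at 9.26, 11.8 and 12.3 in PLVAP-positive cells and at 26.0, 19.7 and 27.0 in the other endothelial cells. It fell without overlap by -0.96 ± 0.102 on the log2 scale (edgeR adjusted p = 2.75e-06; DESeq2 adjusted p = 8.39e-06). The binding protein gene IGFBP6 was at 5.95, 4.95 and 4.31 against 3.98, 3.72 and 2.35 and rose by 0.74 ± 0.123 (edgeR adjusted p = 0.000823; DESeq2 adjusted p = 0.0192). In this list 6 of 14 genes were tested, 1 rose and 1 fell, with a median of 0.14, and IGFBP3 stood outside the test as a gene of the rule. EdgeR without calf 3 called 0 of 6 higher and 1 lower, so IGFBP6 was not called there. IGFBP7 was at 9.87 ± 3.29 in PLVAP-positive cells and 8.97 ± 3.70 in the others, and IGFBP4 at 3.25 ± 1.28 and 3.40 ± 1.36.

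Some Notch genes fell, among them DLL4 and HEY1, which are also on the arterial list. Of 11 tested, 4 fell and none rose, with a median log2 fold change of -0.29, and DESeq2 called 2. The Notch ligand JAG2 was at 1.52, 0.571 and 0.709 in PLVAP-positive cells and at 3.73, 1.33 and 1.76 in the others, a fall of -1.17 ± 0.149 (edgeR adjusted p = 3.38e-05; DESeq2 adjusted p = 0.000411). The ligand DLL4 was at 0.974, 0.857 and 0.533 against 1.24, 1.71 and 1.36 (edgeR adjusted p = 0.000830; DESeq2 adjusted p = 0.146), and the receptor NOTCH4 at 0.313 against 0.644 on average. JAG1, also on both lists, and the target gene HES1 did not pass, HES1 at 3.67 ± 1.66 and 2.62 ± 1.96.

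Receptors of vascular growth factors showed no call. None of 11 tested VEGF and angiopoietin genes passed edgeR (3 at an unadjusted p under 0.05, and none by DESeq2 at either threshold), with a median of 0.14. The VEGF receptor FLT1 was at 2.38, 1.69 and 2.79 in PLVAP-positive cells and at 1.99, 1.51 and 2.72 in the others, the co-receptor NRP1 at 2.04 and 1.97 on average, and the angiopoietin receptor TEK at 1.61 and 1.63. KDR, used by the rule, was at 4.49, 2.96 and 5.41 and 6.22, 3.80 and 5.29. Of the adrenomedullin receptor genes 5 were tested and none passed edgeR (2 at an unadjusted p under 0.05, and none by DESeq2), with a median of -0.42. CALCRL, the receptor that RAMP2 joins, was at 2.60 and 2.32, and RAMP3 at 1.21 and 1.77. PLVAP-positive cells thus held receptors for VEGF, angiopoietins and adrenomedullin, and the differences of those tested did not pass. KDR and RAMP2, as genes of the rule, were not tested.

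Endoglin, ENG, a co-receptor for TGF-beta and BMP ligands, was at 8.12, 6.31 and 8.05 in PLVAP-positive cells and at 5.85, 5.04 and 5.10 in the others. It was the gene called among 14 tested TGF-beta and BMP genes, whose median was -0.12, with a rise of 0.60 ± 0.109 (edgeR adjusted p = 0.00198; DESeq2 adjusted p = 0.0626). The BMP target ID1 was at 15.3 ± 6.23 and 18.3 ± 12.3. Of 11 tested pan-endothelial genes, ENG and the sialomucin gene EMCN rose and the transcription factor SOX18 fell, with a median of 0.11. EMCN was at 8.66, 4.82 and 7.35 against 6.10, 4.41 and 5.46 (log2 fold change 0.44 ± 0.112, edgeR adjusted p = 0.0276), and SOX18 at 6.82, 6.62 and 3.79 against 10.7, 7.62 and 6.62 (-0.42 ± 0.118, edgeR adjusted p = 0.0487). DESeq2 called none of these 11 genes (3 at an unadjusted p under 0.05), and edgeR without calf 3 called none (2 at an unadjusted p under 0.05). The junction gene ESAM, at 3.34 and 3.25, and ROBO4, at 2.56 and 2.65, did not pass. Of the rule's own genes, CLDN5, the claudin of endothelial tight junctions, was at 7.03 ± 4.03 (mean ± SD) in PLVAP-positive cells and at 15.5 ± 3.04 in the others, and VWF, the von Willebrand factor, at 7.26 ± 0.852 and 5.25 ± 0.888. CLDN5 lay lower and VWF higher in PLVAP-positive cells of each calf, as a description without a test.

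The list of fenestrated and capillary endothelium, in which PLVAP itself stands, was called in few genes. Of 10 tested, 2 rose and 1 fell, with a median of 0.26, and DESeq2 called none (3 at an unadjusted p under 0.05). EHD4, which shapes membranes at caveolae, was at 3.32 ± 0.503 (mean ± SD) in PLVAP-positive cells and at 2.39 ± 0.682 in the others, a rise of 0.54 ± 0.126 (edgeR adjusted p = 0.0146). The collagen gene COL15A1 was at 3.30, 2.06 and 2.73 against 2.74, 1.65 and 1.93, a rise of 0.51 ± 0.128 (edgeR adjusted p = 0.0254). FABP4 fell, being lower in PLVAP-positive cells of 2 of 3 calves, with 0.0541, 0.155 and 0.0202 against 0.373, 1.45 and 0.0176. RGCC, at 2.50 ± 1.98 and 2.06 ± 0.936, and CD36, at 1.98 ± 0.263 and 1.80 ± 0.706, did not pass. Among 8 caveolar genes EHD4 rose and CAV1, which coats caveolae, fell, at 7.69, 8.75 and 11.7 against 12.1, 10.4 and 20.3 (-0.44 ± 0.108, edgeR adjusted p = 0.0204; DESeq2 adjusted p = 0.578), with a median of -0.04. CAVIN3 and CAVIN1 were at means of 10.7 and 7.07 in PLVAP-positive cells and of 10.9 and 9.04 in the others.

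Genes of leukocyte traffic overlapped with the venular list. Of 12 tested, ACKR1, SELP and CCL2 rose and CXCL12 fell, with a median of 0.25, and DESeq2 called ACKR1 and CXCL12. The monocyte chemokine CCL2 was at 3.68, 1.58 and 2.39 in PLVAP-positive cells and at 1.62, 0.803 and 1.87 in the others, higher in each calf (0.76 ± 0.155, edgeR adjusted p = 0.00582; DESeq2 adjusted p = 0.103). The adhesion molecules JAM2 and CD34 were at means of 5.21 and 3.34 against 5.07 and 3.28 and did not pass. Of 12 tested junction genes, the connexin genes GJA1, GJA4 and GJA5 fell and none rose, with a median of -0.24. GJA1 was at 0.650, 0.631 and 0.769 against 1.12, 1.74 and 1.06 (edgeR adjusted p = 0.0175; DESeq2 adjusted p = 0.570). The genes called in this list were thus connexins, while CLDN5, its most abundant member, stood outside the test as a gene of the rule, and JAM2 and the catenin gene CTNNB1, at 2.15 and 2.19, did not pass.

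Matrix, coagulation and transport genes were called in few members. Among 17 tested genes of basement membrane and matrix, COL15A1 rose and FN1 fell, with a median of -0.02, while SPARC, which binds collagen, was at 26.9 ± 2.31 in PLVAP-positive cells and 28.7 ± 3.42 in the others. The collagen IV gene COL4A1 was at 6.95 and 7.46. Of 11 tested coagulation and fibrinolysis genes MMRN1 fell and none rose, with a median of 0.02, and the plasminogen activator gene PLAT was at 1.19 and 1.52. With the cells left out that carried fibroblast, mural or keratin UMIs, edgeR called 2 of 5 in this list higher and none lower. Of 12 tested solute transport genes, the prostaglandin transporter gene SLCO2A1 rose, at 0.595, 0.345 and 0.816 against 0.498, 0.234 and 0.427, and the scaffold protein gene SLC9A3R2 fell, at 12.7, 10.8 and 12.6 against 15.3, 15.0 and 23.3 (-0.47 ± 0.107, edgeR adjusted p = 0.0124), with a median of 0.33 and no call by DESeq2 (2 at an unadjusted p under 0.05). Of 8 tested lipid genes FABP4 fell and none rose, with a median of -0.03, and the lipoprotein receptor gene SCARB1 was at 2.42 and 2.36.

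Among 12 tested genes of nitric oxide, endothelin and vasoactive peptides, GUCY1A1 rose and PTGIS fell, with a median of -0.22 and no call by DESeq2 (4 at an unadjusted p under 0.05). GUCY1A1, a subunit of the nitric oxide receptor, was at 0.541, 0.738 and 3.64 in PLVAP-positive cells and at 0.996, 0.447 and 2.05 in the others, higher in 2 of 3 calves (0.82 ± 0.166, edgeR adjusted p = 0.00541). Prostacyclin synthase, PTGIS, was at 0.271, 0.631 and 0.634 against 1.24, 0.803 and 1.22, lower in each calf (-0.70 ± 0.192, edgeR adjusted p = 0.0414). Of 3 tested RGS genes, regulators of G-protein signalling, RGS16 rose and RGS3 fell, at means of 0.859 and 0.724 in PLVAP-positive cells against 0.666 and 1.25, with a median of -0.37 and no call by DESeq2 (2 at an unadjusted p under 0.05). Of 27 tested endothelial transcription factors, NR2F2 and MEOX1 rose and SOX17 and SOX18 fell, with a median of 0.04, and DESeq2 called none (6 at an unadjusted p under 0.05). NR2F2 and SOX17, factors of venous and arterial identity, are already counted among the calls of the venular and arterial lists, so their opposite moves add nothing to those lists. EPAS1, a hypoxia-inducible factor, was at 6.45 ± 2.38 and 8.94 ± 3.94, and did not pass.

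Genes of antigen presentation and of the interferon response were well detected in PLVAP-positive cells. None of 12 tested antigen presentation genes passed edgeR (5 at an unadjusted p under 0.05; none by DESeq2, 2 at an unadjusted p under 0.05), with a median of -0.09. The MHC class I light chain B2M was at 101 ± 54.9 in PLVAP-positive cells and 125 ± 67.4 in the others, and the class II chaperone CD74 at 7.60 ± 2.47 and 6.17 ± 2.66. None of 16 tested interferon genes passed edgeR (1 at an unadjusted p under 0.05; none by DESeq2, 1 at an unadjusted p under 0.05), with a median of -0.10. EdgeR called 1 of 11 lower without calf 3, and 1 of 12 lower without the cells that carried fibroblast, mural or keratin UMIs. IFI6 was at 16.4 ± 15.0 and 18.5 ± 16.6, and ISG15 at 9.35 ± 8.56 and 11.4 ± 9.22. Within calves, B2M had its smaller value in PLVAP-positive cells of each of the 3, without passing in this comparison.

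Among 23 tested immediate-early and heat-shock genes, which respond to tissue dissociation, the chaperone gene HSP90AB1 rose, at 21.7, 15.6 and 16.8 in PLVAP-positive cells against 15.6, 14.1 and 14.9 (0.35 ± 0.0935, edgeR adjusted p = 0.0354; DESeq2 adjusted p = 0.641), and none fell, with a median of 0.18. FOS was at 11.7, 5.40 and 5.94 against 5.73, 5.23 and 6.45, and JUN at 27.5 and 26.8 on average. Of 11 tested cell cycle genes TOP2A, CENPF and MCM5 rose and none fell, with a median of 0.34, at means of 0.272, 0.471 and 0.409 in PLVAP-positive cells. DESeq2 called none of the 11 (2 at an unadjusted p under 0.05), edgeR without calf 3 called none of 8 (1 at an unadjusted p under 0.05), and TOP2A and CENPF had the greater value in 2 of 3 calves. As described below, the UMIs of TOP2A and CENPF sat in few cells. Of 87 tested ribosomal protein genes 61 rose, with a median of 0.33, and of 12 mitochondrially encoded genes 8 rose, with a median of 0.38. DESeq2 called none of either group (67 and 10 at an unadjusted p under 0.05), and edgeR without calf 3 called 27 of 84 and none of the mitochondrial genes (8 at an unadjusted p under 0.05). The median share of mitochondrial UMIs was 2.88%, 2.94% and 1.01% in PLVAP-positive cells of calves 1, 2 and 3 and 2.91%, 2.82% and 0.780% in the other endothelial cells, and its part in these rises was not tested.

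Markers of other cells were low in PLVAP-positive cells, in part by choice. The rule for endothelial cells capped KRT5, KRT14 and KRT15 together and allowed no PTPRC UMI, so both groups were bound to be low in these genes. The 12 listed epithelial markers summed to 8.34, 8.22 and 5.34 UMIs per 10000 in PLVAP-positive cells and to 10.3, 8.38 and 5.19 in the other endothelial cells, with KRT15 the most abundant at means of 2.92 and 3.34. The 3 of them that were tested did not pass edgeR (none at an unadjusted p under 0.05, and none by DESeq2). The 10 fibroblast markers summed to 0.433, 0.345 and 0.803 against 0.747, 0.376 and 2.23, with POSTN the most abundant and neither of 2 tested called by edgeR (1 at an unadjusted p under 0.05) or DESeq2 (none). Of 12 mural and smooth muscle markers, which summed to 0.650, 0.512 and 0.668 against 0.249, 0.376 and 0.457, the 1 tested, MYLK, did not pass edgeR (1 at an unadjusted p under 0.05) or DESeq2, while edgeR with the size factors of DESeq2 called it, and RGS5, PDGFRB and TAGLN were at 0. The 14 immune markers summed to 0.704, 0.905 and 1.16 against 0.871, 0.803 and 0.474, with CD14 the most abundant, CD3E at 0 and neither of 2 tested called by edgeR (1 at an unadjusted p under 0.05) or DESeq2 (none). None of 8 red blood cell markers could be tested, and HBB was at 0. Of 6 glial markers, S100B, a calcium-binding protein of glia that other cells also make, was at 1.03, 1.02 and 1.78 in PLVAP-positive cells and at 2.61, 1.92 and 4.40 in the others and fell by -1.07 ± 0.140 (edgeR adjusted p = 5.15e-05; DESeq2 adjusted p = 0.00149). The part of other cells in the differences was not tested beyond the following. At least 10 UMIs per 10000 of fibroblast or of mural genes, or at least 2 of the keratins KRT5, KRT14 and KRT15 together, were found in 33, 170 and 212 PLVAP-positive cells. The same held for 18, 169 and 228 of the other endothelial cells. At the median depth of PLVAP-positive cells, 4299.5 UMIs, a single keratin UMI was enough to reach the keratin limit. Without such cells, calves 2 and 3 kept 16 and 65 PLVAP-positive cells against 24 and 82 others, calf 1 did not enter, and 41 of 3183 genes were called.

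IGFBP3-positive endothelial cells, 424 in all, were compared next, since they formed most of the other endothelial cells and held no CCL21. This comparison shares its PLVAP-positive profiles with the previous one, so the 2 are not independent. Arterial genes were again the lower and RNASE1 and ACKR1 again the higher in PLVAP-positive cells. By the same edgeR test, 253 of 6915 genes differed (3.66%), of which 150 were higher (2.17%) and 103 lower (1.49%) in PLVAP-positive cells. DESeq2 called 33, of which 10 were higher and 23 lower, and edgeR called 68 without calf 3 and 8 without the calf as a block. Without the cells of fibroblast, mural or keratin UMIs defined above, which left 16 and 65 PLVAP-positive against 14 and 70 IGFBP3-positive cells in calves 2 and 3, edgeR called none of 2941 genes (168 at an unadjusted p under 0.05), and DESeq2 was not run on these profiles. In that setting the log2 fold changes of RNASE1, ACKR1 and GJA4 were 2.80, 2.83 and -2.80, no smaller than with all cells. Those of CCL8, MUSTN1, GRO1, CORO1C and ELN shrank to 0.79, 0.88, 0.28, -0.69 and -0.09, and what part the number of cells had in the loss of calls was not tested. Of the higher genes, 61 encoded ribosomal proteins and 10 were mitochondrially encoded.

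RNASE1 was at 2.79, 1.23 and 0.574 in IGFBP3-positive cells, below every value of PLVAP-positive cells, with a log2 fold change of 2.31 ± 0.180 (edgeR adjusted p = 1.59e-09; DESeq2 adjusted p = 5.33e-12). ACKR1 was at 0, 1.09 and 0.178 in IGFBP3-positive cells against the 1.08, 3.39 and 1.04 given above for PLVAP-positive cells, a rise of 2.10 ± 0.197 (edgeR adjusted p = 5.55e-08; DESeq2 adjusted p = 1.77e-05). FGL1 was at 0, 0.374 and 0.268 in IGFBP3-positive cells and rose by 2.20 ± 0.214 (edgeR adjusted p = 9.14e-08). SELP was at 0, 1.05 and 0.363 and rose in each calf by 1.29 ± 0.242, by edgeR (adjusted p = 0.00147) but not by DESeq2 (adjusted p = 0.148), and by 0.49 without calf 3, which missed the threshold (edgeR adjusted p = 0.713). TSPAN7, a tetraspanin gene, was at 0.974, 0.976 and 1.08 in PLVAP-positive and 0.155, 0.471 and 0.733 in IGFBP3-positive cells, without overlap (0.89 ± 0.191, edgeR adjusted p = 0.00565; DESeq2 adjusted p = 0.299), and without calf 3 its log2 fold change was 1.25 (edgeR adjusted p = 0.0528). Of the 24 genes named by the same rule in this comparison, DESeq2 called 19 and edgeR without calf 3 called 15. LYVE1, CCL8 and MUSTN1 rose by 1.44, 1.71 and 1.31. Of 8 tested venular genes, ACKR1, SELP and NR2F2 rose and none fell, with a median of 0.55, DESeq2 called 1, and edgeR without calf 3 called 1 of 7.

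On the lower side, GJA4 was at 1.71, 1.51 and 0.701 in IGFBP3-positive cells and fell in PLVAP-positive cells by -2.49 ± 0.245 (edgeR adjusted p = 9.75e-08). IGFBP3-positive cells were uneven in GJA4, as a description without a test. In calves 2 and 3 it was at 5.97 and 1.21 in those with fewer than 2 PLVAP UMIs. In those with at least 2 it was at 0.412 and 0.165 with 1 IGFBP3 UMI and at 0.909 and 0.770 with 2 or more. PLVAP-positive cells of these calves had 0.143 and 0.162. EGFL8, UNC5B, FN1 and CXCL12 fell by -3.98, -1.95, -1.77 and -1.71 on the log2 scale. DLL4, the Notch ligand of arterial and sprouting endothelium, was at 1.55, 1.92 and 1.42 in IGFBP3-positive cells and fell by -1.13 ± 0.165 (edgeR adjusted p = 5.43e-05; DESeq2 adjusted p = 0.0273). MCFD2, which helps export coagulation factors from the endoplasmic reticulum, was at 0.487, 0.595 and 0.688 in PLVAP-positive and at 1.71, 1.29 and 1.72 in IGFBP3-positive cells, a fall of -1.18 ± 0.165 without overlap. Of 12 tested arterial genes 9 fell and none rose, with a median of -1.83 beside 0.00 over all genes tested, and DESeq2 called 7 of them. B2M and the MHC class I gene BOLA fell by -0.20 ± 0.0569 and -0.23 ± 0.0650 (edgeR adjusted p = 0.0404 and 0.0478), which DESeq2 did not call (adjusted p = 1.00 and 1.00). Reads of MHC class I genes are shared among near-identical copies, so the level of BOLA is uncertain.

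PLVAP-positive cells also differed among themselves. A UMI of ACKR1, SELP or SELE, the venular markers, was present in 9, 78 and 103 of them, which is 25.7%, 41.9% and 37.2% of the cells of calves 1, 2 and 3. ACKR1 was found in 4, 62 and 43 cells and SELP in 8, 51 and 88. The median depth of cells with a marker was 4648, 4117 and 5250 UMIs and that of cells without was 4352, 3469.5 and 4593, so cells with a marker were the deeper in each calf, and the part of depth in these shares was not tested. The 9 cells of calf 1 were too few for a profile, and the comparison rests on calves 2 and 3. Between cells with and without a marker, 6 of 5755 genes (0.104%) passed the edgeR test, 3 in each direction, and DESeq2 called 5. The count was unstable: edgeR called 32 genes with the size factors of DESeq2 and 143 with no filter on low counts, but none without the calf as a block (120 at an unadjusted p under 0.05) and none with every cell thinned to 2000 UMIs (220 at an unadjusted p under 0.05). After thinning the log2 fold changes of RNASE1, SERTM1 and LTBP1 were 2.22, 1.90 and 1.63.

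The higher genes in cells with a venular marker were RNASE1, LTBP1 and SERTM1. RNASE1 was at 6.10 and 8.21 in marker-positive cells of calves 2 and 3 and at 2.03 and 1.46 in the rest, a log2 fold change of 2.15 ± 0.196 (edgeR adjusted p = 0.0272; DESeq2 adjusted p = 2.40e-10). LTBP1, which binds latent TGF-beta in the matrix, rose as well (2.10 ± 0.237, edgeR adjusted p = 0.0385; DESeq2 adjusted p = 0.00793). SERTM1 was the other gene that rose (1.71 ± 0.176, edgeR adjusted p = 0.0278; DESeq2 adjusted p = 1.75e-05). Calf 1, which did not enter the test, had the same order, with RNASE1 at 13.1 and 5.81, LTBP1 at 5.55 and 0.372, and SERTM1 at 4.75 and 0.223. RNASE1 was thus higher in those PLVAP-positive cells that held a venular marker, and it was also the named gene with the largest rise against the other endothelial cells.

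The lower genes were CENPF, TOP2A and a gene without a symbol. CENPF, a kinetochore protein of dividing cells, had 49 UMIs in 4 of the 108 marker-negative cells of calf 2 and 121 UMIs in 8 of the 174 of calf 3, against 0 in the 78 marker-positive cells of calf 2 and 2 UMIs in 2 of the 103 of calf 3. TOP2A, the topoisomerase of replicating cells, had 21 UMIs in 4 and 70 UMIs in 7 marker-negative cells, against 1 and 4 UMIs in marker-positive ones. These UMIs sat in few cells, and the calls (edgeR adjusted p = 0.0174 and 0.0278; DESeq2 adjusted p = 0.000505 and 0.101) rest on those cells. In the 6 tested genes of the venular list none passed edgeR (3 at an unadjusted p under 0.05) or DESeq2 (2 at an unadjusted p under 0.05). Of 7 tested arterial genes none passed edgeR (4 at an unadjusted p under 0.05) or DESeq2 (3 at an unadjusted p under 0.05). EdgeR with the size factors of DESeq2 called 1 of the venular genes higher and 3 of the arterial genes lower. As values without a call, UNC5B was at 0.0996 and 0.0320 with and 0.638 and 0.443 without a marker, and endothelin, EDN1, at 0.847 and 0.992 and 0.0684 and 0.245. VWF, a gene of the rule, and CCL14, a given marker, were left out of the test. VWF was at 10.7 and 7.76 and 5.68 and 5.34, and CCL14 at 31.3 and 5.01 and 23.7 and 1.74, the higher value in marker-positive cells of both calves.

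Grouping cells by their number of PLVAP and IGFBP3 UMIs, a description without a test whose genes were chosen after values had been seen, showed how PLVAP-positive cells graded into their neighbours in calves 2 and 3. CLDN5 was at 12.9 and 8.93 in cells with 2 PLVAP UMIs and at 9.56 and 1.86 in those with 10 or more. In cells with IGFBP3 and fewer than 2 PLVAP UMIs, outside the group, CLDN5 was at 41.9 and 29.1. The tight junction gene had its lowest values where PLVAP UMIs were most, in both calves. CLDN5, PLVAP and IGFBP3 are genes of the rule, so this order describes the chosen cells and no conclusion is drawn from it. GJA4 was at 0.0422 and 0.0214 in cells with 10 or more PLVAP UMIs, against 5.18 and 4.13 in endothelial cells with neither PLVAP nor IGFBP3. ACKR1 likewise had its lowest values within the group where PLVAP UMIs were most, at 20.0 and 2.41 in cells with 2 PLVAP UMIs, 5.40 and 2.05 in those with 3 to 4 and 1.56 and 0.579 in those with 10 or more. Outside the group, endothelial cells with 1 PLVAP UMI and no IGFBP3 had ACKR1 at 5.44 and 1.28 and SELP at 2.43 and 0.638, so ACKR1 did not part the group from these neighbours. Cells with at least 2 PLVAP UMIs and exactly 1 IGFBP3 UMI, 37 and 63 by calf, had CLDN5 at 10.1 and 3.27 and GJA4 at 0.412 and 0.165, CLDN5 within the range of the PLVAP-positive cells of its calf. The cells with 2 PLVAP UMIs in calf 2 numbered 13, and the groups differ in depth, with medians of 3646 and 3605 UMIs at 2 PLVAP UMIs and of 4177.5 and 5676 at 10 or more.

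**Figure D3:**
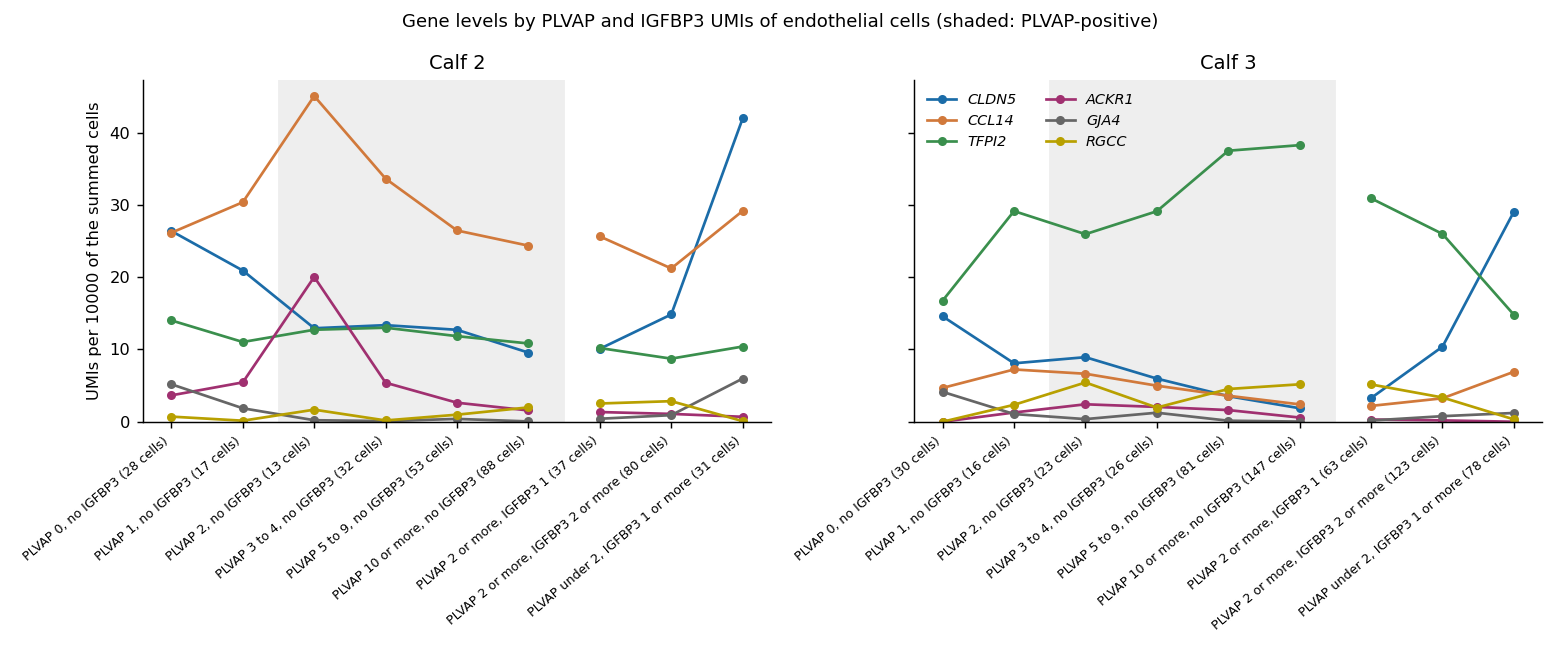
CLDN5, CCL14, TFPI2, ACKR1, GJA4 and RGCC as UMIs per 10000 in endothelial cells of calf 2 and calf 3, grouped by their number of PLVAP and IGFBP3 UMIs, with PLVAP-positive cells shaded. As a description of genes of the rule, without a test, CLDN5 was at 9.56 and 1.86 in cells with 10 or more PLVAP UMIs. It was at 41.9 and 29.1 in cells with IGFBP3 and fewer than 2 PLVAP UMIs.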

How the data were processed

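The authors deposited raw counts of UMIs per gene and barcode of 3 Chromium 3' v3 libraries, 1 per calf, made with Cell Ranger 3.1.0 and not normalized. Barcodes were filtered and cell groups chosen as given above, in Python 3.11.15 with NumPy 2.4.6, SciPy 1.17.1 and scikit-learn 1.9.0. Figures were drawn with matplotlib 3.10.9. Cells are not replicates, so UMIs were summed per calf and group, with at least 10 cells a profile, and tested with edgeR 4.0.16 in R 4.3.3 (TMM scaling, filterByExpr, quasi-likelihood, Benjamini-Hochberg adjustment at 0.05). Both profiles of a comparison come from the same animal and library, which pairs them, so the calf was a block. The genes of the rule and the given markers were left out of the adjustment and the counts of genes tested. The SE of an edgeR log2 fold change was derived from the F statistic, as the absolute log2 fold change divided by the square root of F. It does not measure the spread over calves. The test was checked on simulated counts.

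Named genes are those past the threshold, with a symbol, in the same direction in each calf that entered and at 1 UMI per 10000 or more in the higher group, the 12 largest and 12 smallest log2 fold changes, and members of gene lists. Ribosomal and mitochondrial genes were only counted. The members and lists were chosen with earlier results of these data known. Doublets were scored against summed pairs of cells (30 components of 2000 variable genes, 30 neighbours) and kept, except in 1 alternative. The share marked was set in advance, in proportion to the number of kept barcodes of a calf. Shares of cells with a gene were taken after thinning to 2000 UMIs. The alternatives tried were DESeq2 1.42.0, its size factors, no filter on low counts, no block, each calf left out, other thresholds, thinning, and doublets or cells of mixed markers left out. Of 27270 genes 7540 have an identifier only.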

Additional observations from a re-analysis of the deposited data

How the results depend on the processing

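The share of PLVAP-positive cells stayed within 1 SD of its mean in every setting tried (50.4% to 63.7%, and 48.1% to 57.6% with a calf left out). The number of genes called depended on the tool, the block and calf 3. Against the other endothelial cells (260 called), DESeq2 called 34, the fit without the block or pairing 9, the fit without cells of mixed markers 41 and the rule applied to thinned cells 167, and leaving out a calf gave 76 to 281. Against IGFBP3-positive cells (253), DESeq2 called 33, the fit without the block or pairing 8 and the fit without cells of mixed markers 0 (168 at an unadjusted p under 0.05), and leaving out a calf gave 68 to 350. Between cells with and without a venular marker (6), the size factors of DESeq2 gave 32, no filter on low counts 143, the fit without the block 0 (120 at an unadjusted p under 0.05) and thinning 0 (220 at an unadjusted p under 0.05). Calf 1 did not enter this comparison, so leaving out another calf, or cells of mixed markers, left 1 calf and no test. The other settings stayed within 1.5 times the count. ELN turned from lower to a log2 fold change of 0.0215 without cells of mixed markers (edgeR adjusted p = 0.996), and the cause was not tested. Of 24 genes named against the other endothelial cells, 10 passed in that setting and 4 without the block. Levels of the given markers moved by less than the SD over calves when doublets were left out or cells were averaged. With 35 PLVAP-positive and 18 other endothelial cells in calf 1, genes of few UMIs were poorly measured there, and 1 library per calf does not part animal from library.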

Other observations

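Levels of interferon-induced and other genes in PLVAP-positive cells differed several-fold between the calves. With 1 library per calf, animal and library cannot be told apart, no test was made, and the genes were chosen after their values had been seen. The interferon-induced gene IFI6 was at 0.433, 18.8 and 30.1 UMIs per 10000 in PLVAP-positive cells of calves 1, 2 and 3, against 0.000775, 0.328 and 1.76 in epithelial cells. ISG15, a ubiquitin-like protein, was at 1.30, 8.40 and 18.3, the antiviral GTPase MX1 at 1.08, 3.88 and 13.6 and IFI27 at 5.63, 47.8 and 85.1. Calf 1 had the lowest and calf 3 the highest value of these genes. IFI27 also rose against the other endothelial cells by edgeR, with a log2 fold change of 0.34 (edgeR adjusted p = 0.0246; DESeq2 adjusted p = 1.00), and it is not on the list of interferon genes above. The MHC class I light chain B2M was at 49.2, 95.9 and 159, in the same order. The glucocorticoid-induced gene FKBP5 was at 0.920, 0.571 and 6.26, the metabolic switch PDK4 at 3.03, 7.38 and 17.0 and the heat-shock gene HSPA1A at 7.74, 11.2 and 23.2, each highest in calf 3. The transcript of ENSBTAG00000019018, a gene without a symbol, was at 0.0541, 6.64 and 0.0270, present in calf 2 and near 0 in the others, and in epithelial cells at 0.00310, 1.11 and 0.0105. Of 644 genes at a mean of 2 or more per 10000, 28 were over 2-fold higher and 23 over 2-fold lower in calf 3 than in calf 2, and the median coefficient of variation over calves was 18.1%.

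The venular genes ACKR1 and SELP were found together in more PLVAP-positive cells than independent detection would give, in each calf. Each of them was found with the capillary gene RGCC in fewer cells than that in calves 2 and 3, while SELP with RGCC went the other way in calf 1. These counts are of cells thinned to 2000 UMIs, come from 16 pairs of genes chosen after values had been seen, and carry no test. In calf 2, ACKR1 was found in 39 and SELP in 39 of 176 cells, and both in 20, where independent detection would give 8.64. In calf 3, ACKR1 was found in 28 and SELP in 51 of 263 cells, and both in 12, where independent detection would give 5.43. In calf 1, with 34 cells, both were found in 3 (0.588 if independent). RGCC was found in 28 cells of calf 2, none of them with ACKR1 (6.20 if independent), and in 122 cells of calf 3, of which 6 had ACKR1 (13.0 if independent). With SELP, RGCC was found in 1 cell of calf 2 (6.20 if independent) and 14 of calf 3 (23.7 if independent). Calf 1 had 2 such cells (0.441 if independent), the other way. RNASE1 was found with ACKR1 in 17 cells of calf 2 (10.4 if independent) and 20 of calf 3 (6.49 if independent). Cells of equal depth can still differ in what share of their RNA is free RNA, and its part in these counts was not tested.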
